A study of Mus musculus with 2 samples.

Results

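Polycomb and trithorax complex subunits are the proteins that write, read and remove the histone marks of silenced and active developmental genes. The 37 genes described here were chosen by name, for the complexes they belong to, from 43346 annotated genes. All 37 were found in the gene tables by Ensembl identifier, and their 269 annotated transcripts in the transcript tables. The RNA came from intestine of mouse embryos at day 15.5 of gestation, labelled healthy, of strain B6NCrl, with no treatment named. There was 1 group of 2 libraries: replicate 1 came from a pool of 78 embryos and replicate 2 from a pool of 62, both of mixed sex. Each library was made from 10 ng of total RNA over 200 nucleotides with spike-in standards added. With 1 group and n = 2, no test between conditions was possible, and every difference below is a difference between genes or between the 2 pools. The spread between the pools covers dissection, pooling and library preparation together. In whole tissue, fewer cells of a type and less RNA per cell cannot be told apart.

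Polycomb repressive complex 2 (PRC2) methylates histone H3 at lysine 27 (H3K27), and Polycomb repressive complex 1 (PRC1) ubiquitinates histone H2A and compacts chromatin. Trithorax-group complexes of the KMT2 family methylate histone H3 at lysine 4 (H3K4) and keep genes open to transcription. Most subunits come as paralogs that replace each other in a complex, and in developing tissues these complexes are known for holding genes of other organs silent while cells differentiate.

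The libraries held 34406872 and 40669822 estimated counts in replicates 1 and 2, of which 2.16% and 1.76% fell on the spike-ins. All 8 intestinal epithelium markers were detected, with summed levels of 6632 and 6056 TPM (a level scaled to the library and to transcript length). Markers of smooth muscle, mesenchyme, enteric neurons, macrophages and red cells were detected in full as well. The 4 exocrine pancreas markers summed to 3726 and 1321 TPM, 2.82-fold higher in replicate 1, and the 4 liver markers to 447 and 322 TPM. Of the 4 stomach markers 2 were detected, with sums of 10.9 and 4.43 TPM. Markers of dividing cells summed to 728 and 766 TPM. The part of these cells in the levels below was not tested.

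Every one of the 37 genes reached 1 TPM in both libraries, the limit used here for detection, which 34.6% of all annotated genes and 62.7% of protein-coding genes reached. A level of 10 TPM in both libraries was reached by 28 members, beside 63.9% of the detected protein-coding genes, and the other 9 were below 10 TPM in both. The median member stood at 18.6 TPM in replicate 1 and 20.4 TPM in replicate 2. In the order of mean levels of detected protein-coding genes the members lay between percentile 13.9 (Cbx7) and percentile 98.7 (Rbbp7), with their median at percentile 53.0. As a set they were therefore placed near the middle of the detected genes, and their levels spanned a wide range. Together they made up 1764 and 1924 TPM.

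**Figure D1:**
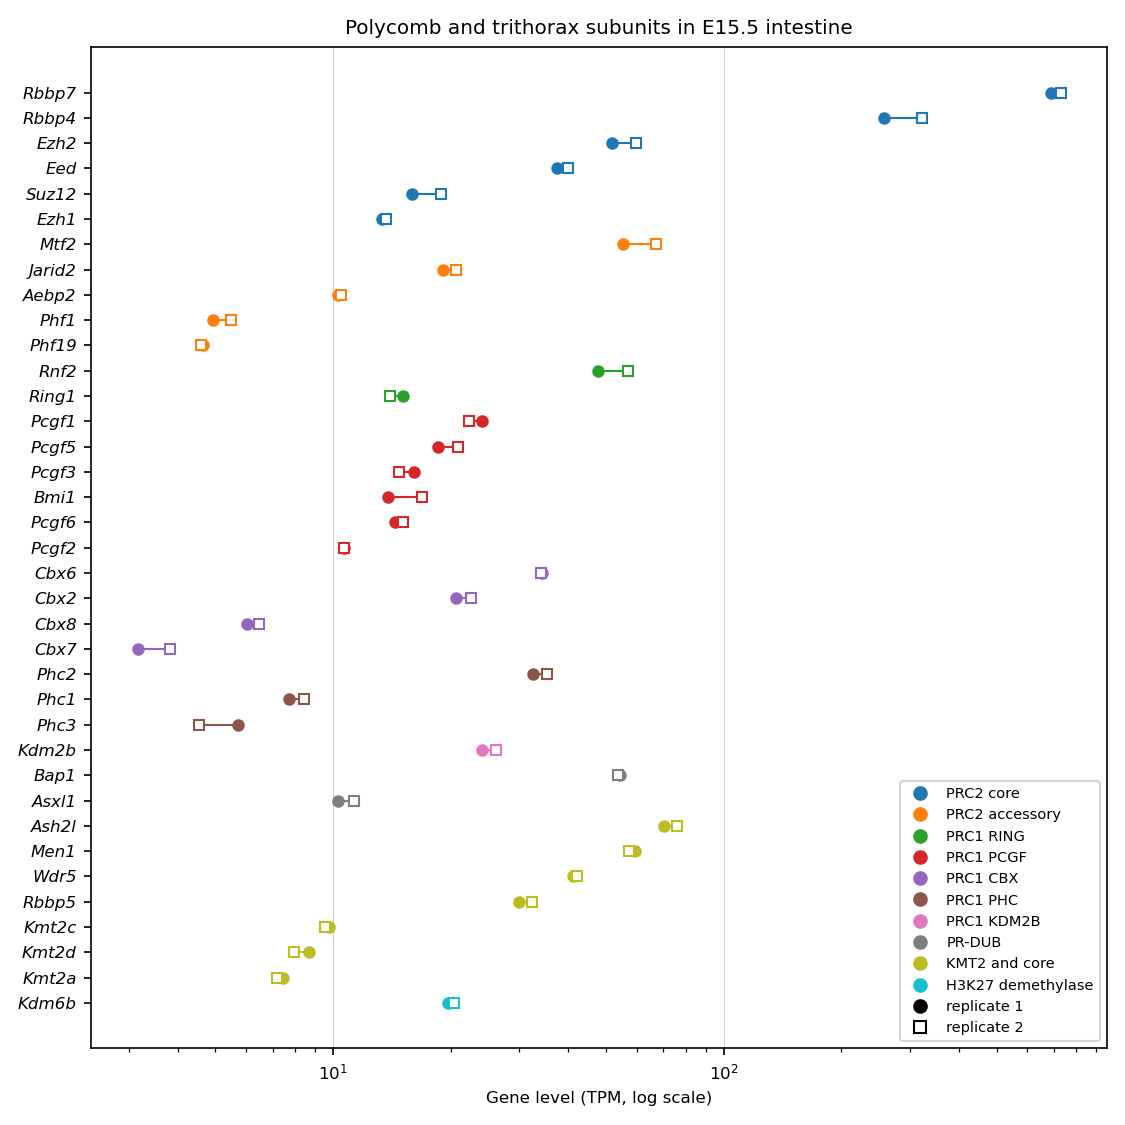
Level of each of the 37 genes in TPM on a log axis, with replicate 1 as a filled circle and replicate 2 as an open square, grouped and coloured by role. Rbbp7 and Rbbp4 lie far to the right at 257 to 731 TPM, and Cbx7, Phf19, Phc3 and Phf1 at the left between 3.16 and 5.70 TPM.

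No member differed between the pools by 1.5-fold or more, on the scale log2(TPM + 1), beside 2.23% of all 14986 detected genes and 1.35% of the protein-coding ones. The largest ratio was that of Rbbp4, log2 0.32 higher in replicate 2, and the lowest that of Phc3, log2 -0.27. The SD of the 2 libraries was 5.58% of the mean for the median member and 5.64% for the median detected protein-coding gene. A higher level in replicate 2 was listed for 26 members, beside 55.2% of detected genes. Their median log2 ratio was 0.09, against 0.02 over all detected genes. Among the genes labelled in the plot of these ratios, Rbbp4, Rbbp7, Bmi1, Mtf2, Rnf2, Suz12, Ezh2 and Cbx7 lie above the line of equal levels. Phc3 lies below it, as 1 of the 11 members that were lower in replicate 2.

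**Figure D2:**
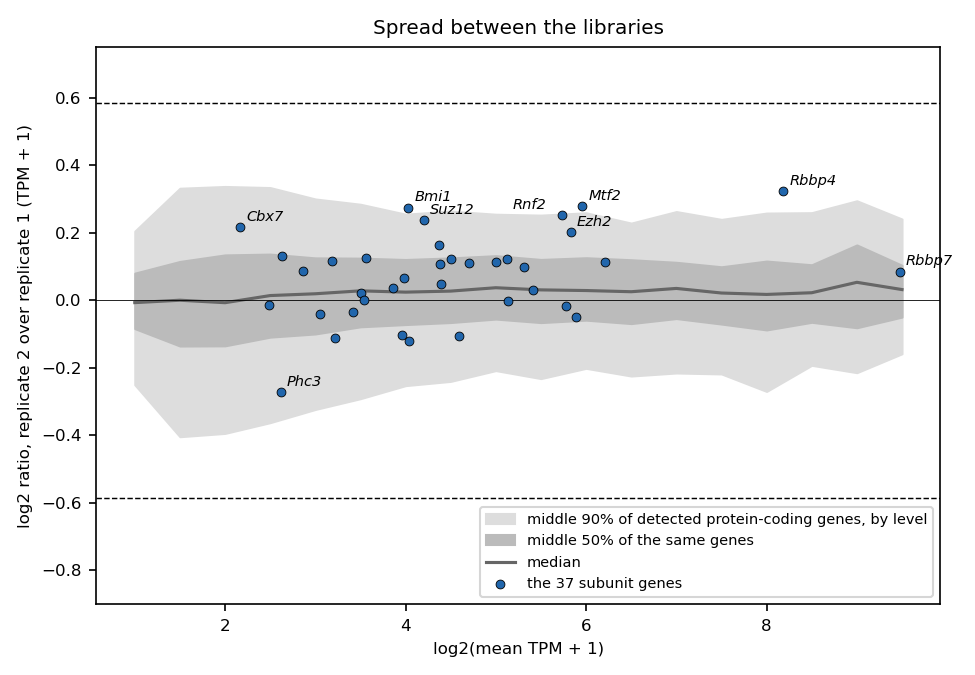
Log2 ratio of replicate 2 over replicate 1 against the mean level, both on TPM + 1, for the 37 genes (points) over bands that hold the middle 50% and 90% of detected protein-coding genes of the same level. All points lie inside the dashed lines at 1.5-fold, from -0.27 (Phc3) to 0.32 (Rbbp4).

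The catalytic subunit of PRC2 is either EZH2, which is abundant in dividing cells, or EZH1, which is known from resting ones. Ezh2 (chr6:47530139-47595341, minus strand, GRCm38) stood at 51.9 and 59.8 TPM, and Ezh1 (chr11:101191115-101226463, minus strand) at 13.3 and 13.7 TPM. Ezh2 was thus 3.89-fold and 4.37-fold above Ezh1 in the 2 libraries, and the values of the paralogs did not overlap. The scaffold gene Suz12 was listed at 15.9 and 18.9 TPM. Eed, whose product binds trimethylated H3K27, was at 37.4 and 40.1 TPM. The core subunits were therefore not listed at equal levels: Ezh2 was 3.26-fold and 3.16-fold above Suz12, and Eed 2.35-fold and 2.12-fold.

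The paralogs of the catalytic subunit can be told apart by their letters. The coding sequences of Ezh1-203 (750 codons) and Ezh2-201 (746 codons) were identical at 65.8% of 2199 aligned bases. Their last 120 coding bases lie at the end of the protein that holds the catalytic SET domain. They are shown 5′ to 3′ from the GENCODE transcripts, with capitals at the 26 bases that differ and lower case at the 94 that are shared.
Ezh1: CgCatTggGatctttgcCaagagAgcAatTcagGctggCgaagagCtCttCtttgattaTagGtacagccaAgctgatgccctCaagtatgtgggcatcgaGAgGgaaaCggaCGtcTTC
Ezh2: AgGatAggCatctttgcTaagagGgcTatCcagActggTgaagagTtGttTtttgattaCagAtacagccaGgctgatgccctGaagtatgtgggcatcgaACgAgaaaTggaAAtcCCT
The longest shared run anywhere in the 2 aligned coding sequences was 17 bases. Of all 31-base words in the transcripts of Ezh1, 0.507% also occurred in another gene, and of those of Ezh2, 2.18%.

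RBBP4 and RBBP7 are near-identical histone-binding proteins that PRC2 shares with chromatin assembly and deacetylase complexes. Rbbp7 (chrX:162760402-162779092, plus strand) was the highest of the 37 genes at 689 and 731 TPM, and Rbbp4 (chr4:129307100-129335370, minus strand) the next at 257 and 322 TPM. The ratio of Rbbp7 over Rbbp4 was 2.68 and 2.27. A large part of the Rbbp4 level came from Rbbp4-203, a transcript of 722 bases with no annotated coding sequence, which was given 61.2% and 64.5% of the gene's TPM. The coding transcript Rbbp4-201 (4407 bases) held 37.3% and 34.5%, or 96.0 and 111 TPM. By estimated counts, which are not divided by length, Rbbp4-203 held 18.6% and 20.9%. Counting transcripts annotated as protein-coding alone, Rbbp7 was 7.15-fold and 6.54-fold above Rbbp4.

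The coding sequences of Rbbp4-201 and Rbbp7-201, both 425 codons long, were identical at 78.2% of 1272 aligned bases. The pair below is the last stretch of 120 bases of their longest gap-free alignment, ending 23 and 26 bases before the end of the coding sequence, with the 23 differing bases in capitals and 97 shared.
Rbbp4: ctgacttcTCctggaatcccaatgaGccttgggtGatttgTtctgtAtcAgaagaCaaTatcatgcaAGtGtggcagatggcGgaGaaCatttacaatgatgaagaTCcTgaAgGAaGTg
Rbbp7: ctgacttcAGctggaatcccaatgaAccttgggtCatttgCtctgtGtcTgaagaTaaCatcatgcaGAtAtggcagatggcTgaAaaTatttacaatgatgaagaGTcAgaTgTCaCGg
No shared run was longer than 20 bases. Both genes shared more of their 31-base words with other genes than most members did, 22.0% for Rbbp4 and 16.5% for Rbbp7, so their levels carry that uncertainty.

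Accessory subunits steer PRC2 to chromatin and fall into a Polycomb-like class (Mtf2, Phf1, Phf19) and a class of Jarid2 and Aebp2. Mtf2 was the leading Polycomb-like gene at 55.2 and 67.1 TPM. Phf1 was listed at 4.93 and 5.49 TPM and Phf19 at 4.65 and 4.59 TPM. Mtf2 was therefore 11.2-fold and 12.2-fold above Phf1, while the intervals that the authors deposited with each level overlapped between Phf1 and Phf19. Phf1 shared 32.5% of its words, read on either strand, with other genes, and all of these occurred in its neighbour Cuta. Jarid2, which recruits PRC2 and binds ubiquitinated H2A with Aebp2, stood at 19.1 and 20.7 TPM. Aebp2 was lower at 10.3 and 10.5 TPM, a ratio of 1.85 and 1.97.

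The transcripts of these accessory genes changed that picture. For Mtf2 the leading transcript was Mtf2-208, a coding model of 718 bases that is incomplete in the annotation, with 32.6% and 42.0% of the TPM. The full coding transcript Mtf2-201 (593 codons) held 15.2% and 14.2%, or 8.39 and 9.54 TPM. By estimated counts the order was the other way, with 12.0% and 16.7% on Mtf2-208 and 35.7% and 36.2% on Mtf2-201. All full-length coding transcripts of Mtf2 summed to 13.1 and 9.69 TPM, still above the 4.93 and 5.49 TPM of Phf1. A full-length transcript here is one with a complete coding sequence of at least 90% of the longest annotated for the gene. Aebp2 was led by Aebp2-201 (274 of at most 504 codons) with 52.5% and 48.1%. A further 34.0% and 27.9% fell on a transcript that the newer annotation used for names no longer holds. Full-length Aebp2 transcripts summed to 0.82 and 0.67 TPM, a sum that leaves out that unclassed transcript. Aebp2-201 and Aebp2-203 had 4460 and 2038 bases as quantified, against 5932 and 2575 in the newer annotation. Their classes and codons come from the newer models.

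The catalytic subunits of PRC1 are the ubiquitin ligases RING1 and RNF2 (RING1B). Rnf2 was at 47.7 and 57.0 TPM and Ring1 at 15.1 and 14.0 TPM, so that Rnf2 was 3.16-fold and 4.07-fold higher. Both were led by a full coding transcript in both libraries, Rnf2-201 with 93.9% and 97.4% of its gene and Ring1-201 with 80.1% and 80.9%.

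One of several PCGF proteins pairs with the ligase and decides which kind of PRC1 forms. Pcgf1, whose protein joins KDM2B and BCOR, was the highest at 24.0 and 22.2 TPM. Pcgf5 followed at 18.6 and 20.9 TPM, and Pcgf3, whose product forms a closely related PRC1 complex, stood at 16.1 and 14.7 TPM. Bmi1 (PCGF4), of canonical PRC1, was listed at 13.8 and 16.9 TPM. Pcgf6, which works with MGA, E2F6 and L3MBTL2, was at 14.4 and 15.1 TPM. Pcgf2 (MEL18), the canonical partner most like Bmi1, was the lowest at 10.7 TPM in each library. All PCGF genes thus lay within a 2.25-fold and 2.08-fold range. Pcgf3, Bmi1 and Pcgf6 could not be ordered, since their values overlapped. The values of Pcgf1 and Pcgf5 did not overlap, but the intervals deposited by the authors did so in replicate 2. Word sharing with other genes was 28.2% for Bmi1 and 23.1% for Pcgf1, the closest genes being Gm5946 and Gm8930.

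CBX proteins are the chromodomain subunits with which canonical PRC1 reads trimethylated H3K27. Cbx6 stood at 34.2 TPM in each library and Cbx2 at 20.6 and 22.6 TPM. Cbx8 was listed at 6.04 and 6.47 TPM. Cbx7, known from embryonic stem cells and adult tissue, was the lowest of all 37 genes at 3.16 and 3.83 TPM. The order Cbx6, Cbx2, Cbx8, Cbx7 held in both libraries without overlap of the listed values, and Cbx6 was 10.8-fold and 8.92-fold above Cbx7. The intervals deposited by the authors overlapped between Cbx8 and Cbx7 in both libraries. For Cbx7 in replicate 1 they ran from 3.23 to 6.53 TPM, above its listed value.

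Cbx7 was led by Cbx7-203, which has 158 of 251 codons and the same first and last coding base as the long form, with 61.4% and 56.9% of the TPM. The long form Cbx7-201 held 21.5% and 30.8%, and the intervals of the 2 forms overlapped in replicate 2 only. In Cbx8 the leader changed between the pools: Cbx8-202, with no coding sequence, held 51.8% and 37.9%, and the coding Cbx8-201 held 46.0% and 44.7%. The intervals of these transcripts overlapped in both libraries. Cbx8-203, also noncoding, held 2.15% and 17.3%, so that noncoding transcripts together held 54.0% and 55.3%. By counts Cbx8-201 held 81.4% and 82.2%. For Cbx6, Cbx6-202 (396 codons) and Cbx6-203 (414 codons) shared the gene at 49.7% and 49.1% against 38.9% and 39.0% of TPM, and by counts Cbx6-203 led with 59.4% and 59.7%.

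PHC proteins link PRC1 complexes to each other through a terminal SAM domain. Phc2 was the leading one at 32.4 and 35.4 TPM, Phc1 stood at 7.70 and 8.43 TPM, and Phc3 at 5.70 and 4.55 TPM. Phc2 was 4.21-fold and 4.19-fold above Phc1. The transcripts behind these totals differed in kind. Phc2 (chr4:128654702-128752881, plus strand) was led by Phc2-202, which starts 72.9 kb downstream of the first annotated start and codes for 323 of 850 codons. Phc2-202 held 72.7% and 73.6% of the TPM, or 23.6 and 26.0 TPM, and all transcripts that start there held 88.4% and 90.2%. The whole coding sequence of Phc2-202 lies within that of the long form Phc2-201 and ends at the same base. Phc2-201 held 5.55% and 6.02%, or 1.80 and 2.13 TPM. Summing full-length coding transcripts only, Phc2 came to 2.96 and 2.13 TPM and Phc1 to 7.16 and 7.47 TPM, so the order of the paralogs was reversed.

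KDM2B brings PRC1 to unmethylated CpG islands through its CXXC zinc finger, and its long form also carries a demethylase domain. Kdm2b (chr5:122870665-122989823, minus strand) was listed at 24.1 and 26.1 TPM. It had 23 listed transcripts, the most of any member, of which the newer annotation places 3 under other genes. Kdm2b-201 alone took 80.8% and 83.8%, or 19.5 and 21.9 TPM. Kdm2b-201 starts 89.5 kb downstream of the most upstream start and has 776 of 1309 codons. Of its coding bases 97.7% lie within the coding sequence of the long form, and both end at the same base. The 8 transcripts that start at the upstream site together held 11.8% and 10.7%, or 2.84 and 2.79 TPM. The intervals of Kdm2b-201 and of the next transcript, Kdm2b-204, did not overlap in either library. The plot of transcript levels by start site shows that in Kdm2b and in Phc2 alike the upstream start carried little of the RNA. A downstream start, with starts within 1 kb joined, held most of the TPM in some other members too. It held 100% in both libraries for Cbx7 (38.4 kb), 72.9% and 100% for Pcgf5 (30.7 kb) and 96.6% and 96.0% for Ash2l (6.9 kb).

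**Figure D3:**
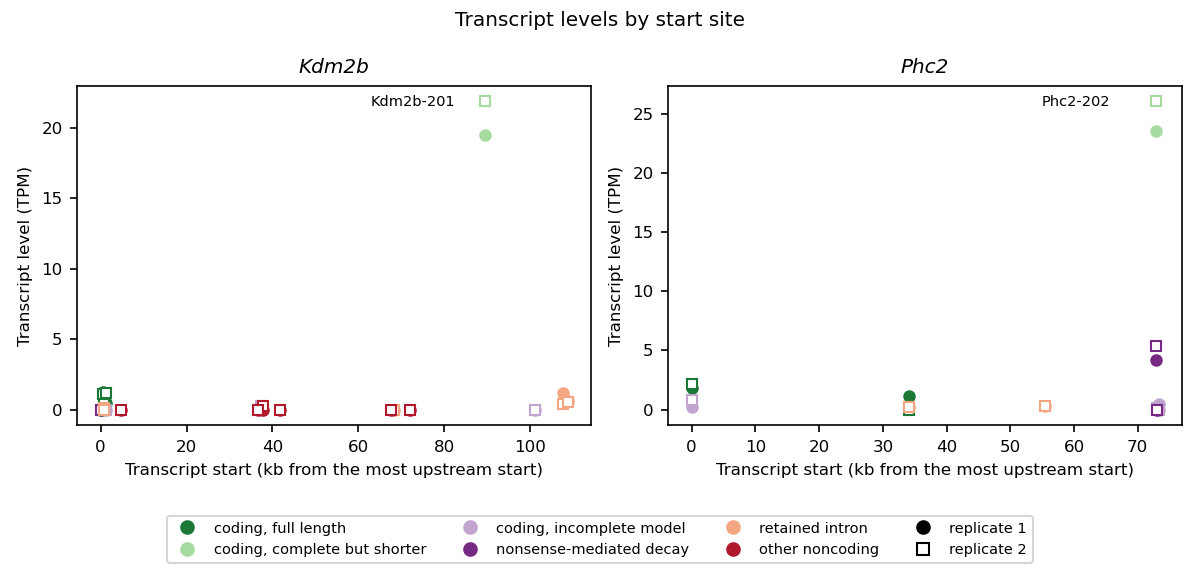
Level of each annotated transcript of Kdm2b and Phc2 in TPM against the distance of its start from the most upstream start in kb, coloured by transcript class, with replicate 1 as filled circles and replicate 2 as open squares. Kdm2b-201 at 89.5 kb (19.5 and 21.9 TPM) and Phc2-202 at 72.9 kb (23.6 and 26.0 TPM) stand far above every other transcript of their gene.

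Kdm2b and Phc2 were listed chiefly from a downstream start, so the DNA before their long-form and short-form starts is shown. It is taken from RefSeq (GRCm38.p6), 5′ to 3′ on the gene's strand, without annotated exons. Capitals mark each CpG, the dinucleotide that the CXXC finger of KDM2B itself recognizes.
Kdm2b long form, before Kdm2b-203 (chr5:122988537-122988757, minus strand): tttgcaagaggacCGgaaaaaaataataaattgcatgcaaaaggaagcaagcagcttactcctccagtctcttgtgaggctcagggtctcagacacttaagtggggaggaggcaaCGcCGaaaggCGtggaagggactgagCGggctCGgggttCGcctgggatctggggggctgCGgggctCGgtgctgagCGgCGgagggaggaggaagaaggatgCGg
Kdm2b short form, before Kdm2b-201 (chr5:122900368-122900617, minus strand): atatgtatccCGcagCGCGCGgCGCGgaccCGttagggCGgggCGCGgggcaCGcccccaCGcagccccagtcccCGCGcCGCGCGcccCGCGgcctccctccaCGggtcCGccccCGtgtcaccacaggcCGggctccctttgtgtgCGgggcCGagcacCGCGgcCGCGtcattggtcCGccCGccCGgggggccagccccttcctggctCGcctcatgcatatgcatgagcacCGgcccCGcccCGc
Phc2 long form, before Phc2-201 (chr4:128654452-128654701, plus strand): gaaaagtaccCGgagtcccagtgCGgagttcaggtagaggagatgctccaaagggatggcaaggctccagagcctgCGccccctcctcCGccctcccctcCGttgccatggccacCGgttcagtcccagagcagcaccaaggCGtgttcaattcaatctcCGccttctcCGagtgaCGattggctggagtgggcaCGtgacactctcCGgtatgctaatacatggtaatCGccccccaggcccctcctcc
Phc2 short form, before Phc2-202 (chr4:128727321-128727570, plus strand): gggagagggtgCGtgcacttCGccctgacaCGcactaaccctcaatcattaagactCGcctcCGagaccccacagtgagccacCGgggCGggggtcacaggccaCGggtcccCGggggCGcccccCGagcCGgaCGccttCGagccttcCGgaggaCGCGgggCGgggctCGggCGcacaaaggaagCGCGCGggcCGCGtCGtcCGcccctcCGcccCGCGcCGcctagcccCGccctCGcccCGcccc
The printed stretch before Kdm2b-201 held 36 CpG in 250 bases and that before Kdm2b-203 held 12 in 221 bases. For Phc2 the counts were 34 before the short form and 13 before the long form, each in 250 bases. In whole RefSeq windows of 300 bases (250 before and 50 after a start), the downstream starts held 47 and 49 CpG (Kdm2b) and 45 (Phc2). The upstream windows of Kdm2b held 28 CpG at the start of Kdm2b-202, the longest form, and 18 near Kdm2b-203, which was chosen for printing as the full-length form with the highest mean TPM share among those with a RefSeq start within 50 bases. The most upstream window of Phc2 held 19 and an internal one 2. As many CpG as the 45 at Phc2 were reached by 1.93% of all 32817 promoters, as many as the 28 at Kdm2b-202 by 14.2%, and as many as the 19 at Phc2-201 by 28.0%. These counts describe the sequence and were not set against any measurement of methylation or binding.

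The same windows were available for 33 of the 37 genes, 46 windows in all. Their median was 23.5 CpG, against 7 over all promoters and 20 over 13501 promoters of detected protein-coding genes. Of the 46 windows, 30 lay above the median of detected genes, from 2 CpG at an internal start of Phc2 and one of Mtf2 to 56 at Kmt2c.

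BAP1 and ASXL1 form the deubiquitinase that removes the PRC1 mark from H2A. Bap1 was listed at 54.2 and 53.6 TPM and Asxl1 at 10.3 and 11.3 TPM, so the catalytic subunit was 5.27-fold and 4.74-fold above its partner. Of the other ASXL genes, Asxl2 was at 15.4 and 15.3 TPM and Asxl3 at 1.13 and 1.16 TPM. Bap1-201 and Asxl1-201, both full coding, held at least 86.2% of their genes in both libraries.

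Among trithorax genes, the KMT2 enzymes were low and the subunits they share were high. Kmt2c and Kmt2d, which monomethylate H3K4 at enhancers, stood at 9.79 and 9.54 TPM and at 8.67 and 7.94 TPM. Kmt2a, known for holding Hox genes active, was at 7.43 and 7.20 TPM. Kmt2b, outside the 37, was lower at 5.93 and 5.40 TPM. The shared core subunits were higher: Ash2l stood at 70.3 and 76.2 TPM, Wdr5 at 41.2 and 42.1 TPM, and Rbbp5 at 29.9 and 32.4 TPM. Ash2l was 9.46-fold and 10.6-fold above Kmt2a. Men1, whose product menin ties KMT2A to chromatin, stood at 59.2 and 57.2 TPM.

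The KMT2 genes were close in level. The intervals deposited by the authors overlapped for Kmt2c and Kmt2d in replicate 1 only, and for Kmt2d and Kmt2a in replicate 2 only. Their transcripts differed more. Kmt2d-201 held 80.6% and 67.7% of its gene. Kmt2c was led by the incomplete model Kmt2c-208, which starts 199 kb downstream, with 43.4% and 44.2%, and the full Kmt2c-201 (4904 codons) held 27.4% and 22.8%. By counts Kmt2c-201 led with 49.9% and 43.2% against 33.7% and 35.8%. In Kmt2a the incomplete model Kmt2a-203 and the full Kmt2a-201 exchanged the lead by TPM, at 46.0% and 48.6% against 53.3% and 39.6%. The intervals of these transcripts overlapped in both libraries. Another full-length transcript, Kmt2a-202, held 0% and 11.1%, and full-length transcripts together held 53.3% and 50.7%. By counts Kmt2a-201 led in both libraries, with 81.6% and 62.4% against 18.3% and 19.9%. Full-length transcripts summed to 8.24 and 7.74 TPM for Kmt2d, 3.96 and 3.65 TPM for Kmt2a and 2.68 and 2.17 TPM for Kmt2c, so that Kmt2c moved from the top of this order to its end.

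Core subunits showed the same spread of forms. Ash2l was led by Ash2l-210 (534 of 623 codons, with the same last coding base as the long form) at 54.7% and 56.3%, and Ash2l-201 held 25.9% and 26.4%. The leader of Rbbp5 was the retained-intron transcript Rbbp5-203 at 38.6% and 38.2%, with the coding Rbbp5-207 (538 codons) at 22.1% and 31.6% and Rbbp5-201 (373 codons) at 23.4% and 26.7%. Word sharing with other genes was 11.3% for Rbbp5, and all of these words occurred in Gm11977. By counts Rbbp5-201 lay above Rbbp5-203 in both libraries, at 33.8% and 35.8% against 30.9% and 28.4%. Wdr5, in contrast, was nearly all Wdr5-201, at 96.5% and 96.9%. Kdm6b, which removes methyl groups from H3K27, stood at 19.7 and 20.4 TPM with 93.5% and 95.6% on the full coding Kdm6b-201, and its paralog Kdm6a was at 9.88 and 11.5 TPM.

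Most other members were carried by a full coding transcript. Eed-201 held 97.9% and 98.7% of its gene, Cbx2-201 held 99.2% and 98.7%, Jarid2-208 held 78.8% and 80.2%, and Phf19-201 held 76.9% and 81.2%. Ezh1-203 held 74.6% and 52.0%, and Pcgf5-201 held 72.9% and 100%. Bmi1-201 stood at 82.2% and 72.3%, Pcgf3-201 at 70.6% and 77.0%, Rbbp7-201 at 64.8% and 71.2%, and Ezh2-201 at 63.5% and 58.8%. In Ezh2 the second transcript was Ezh2-205, an incomplete model of 866 bases, at 16.9% and 22.7%. The lead was weaker in Pcgf1 (Pcgf1-201, 54.5% and 48.2%), Men1 (Men1-203, 44.8% and 40.9%), Phc3 (Phc3-209, 38.3% and 36.1%) and Pcgf2 (Pcgf2-202, 34.5% and 36.1%). Men1-201, with the same 611 codons as Men1-203, held 30.6% and 38.7%, and the second transcript of Phc3 was the retained-intron Phc3-207 at 26.4% and 20.3%. Phf1 and Pcgf6 had 1 transcript each in the tables, Phf1-201 and Pcgf6-201.

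Across the 37 genes the leading transcript by TPM was full-length coding in 27, complete but shorter in 5 (Kdm2b, Phc2, Cbx7, Aebp2 and Ash2l), an incomplete coding model in 3 (Mtf2, Kmt2a and Kmt2c) and noncoding in 2 (Rbbp4 and Rbbp5). Among detected protein-coding genes led by a coding transcript, 7.23% were led by a complete but shorter one and 2.42% by an incomplete one. A noncoding leader was found in 6.2% of the detected protein-coding genes. By estimated counts, which are not divided by length, 31 members were led by a full-length coding transcript and 6 by a complete but shorter one, Rbbp5 being the addition. No member was led by an incomplete or noncoding transcript on that scale, beside 0.694% and 3.36% of genes, and a shorter leader was found in 6.41%. The leader was the same by TPM and by counts in 31 of 37 members, the others being Rbbp4, Rbbp5, Mtf2, Kmt2a, Kmt2c and Cbx6. One transcript held over 50% of the gene in both libraries in 22 of the 35 members with several transcripts, beside 72.2% of such genes. By TPM the leader was the same in both libraries for 32 of these 35, the exceptions being Cbx8, Phc1 and Kmt2a, beside 91.2% of such genes. The interval of the leading transcript lay above that of the second in both libraries for 26 of 35, beside 68.8%. Members with several transcripts had a median of 10.1% and 7.31% of their TPM on transcripts not annotated as protein-coding, beside 6.20% and 5.73% for such genes at large.

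**Figure D4:**
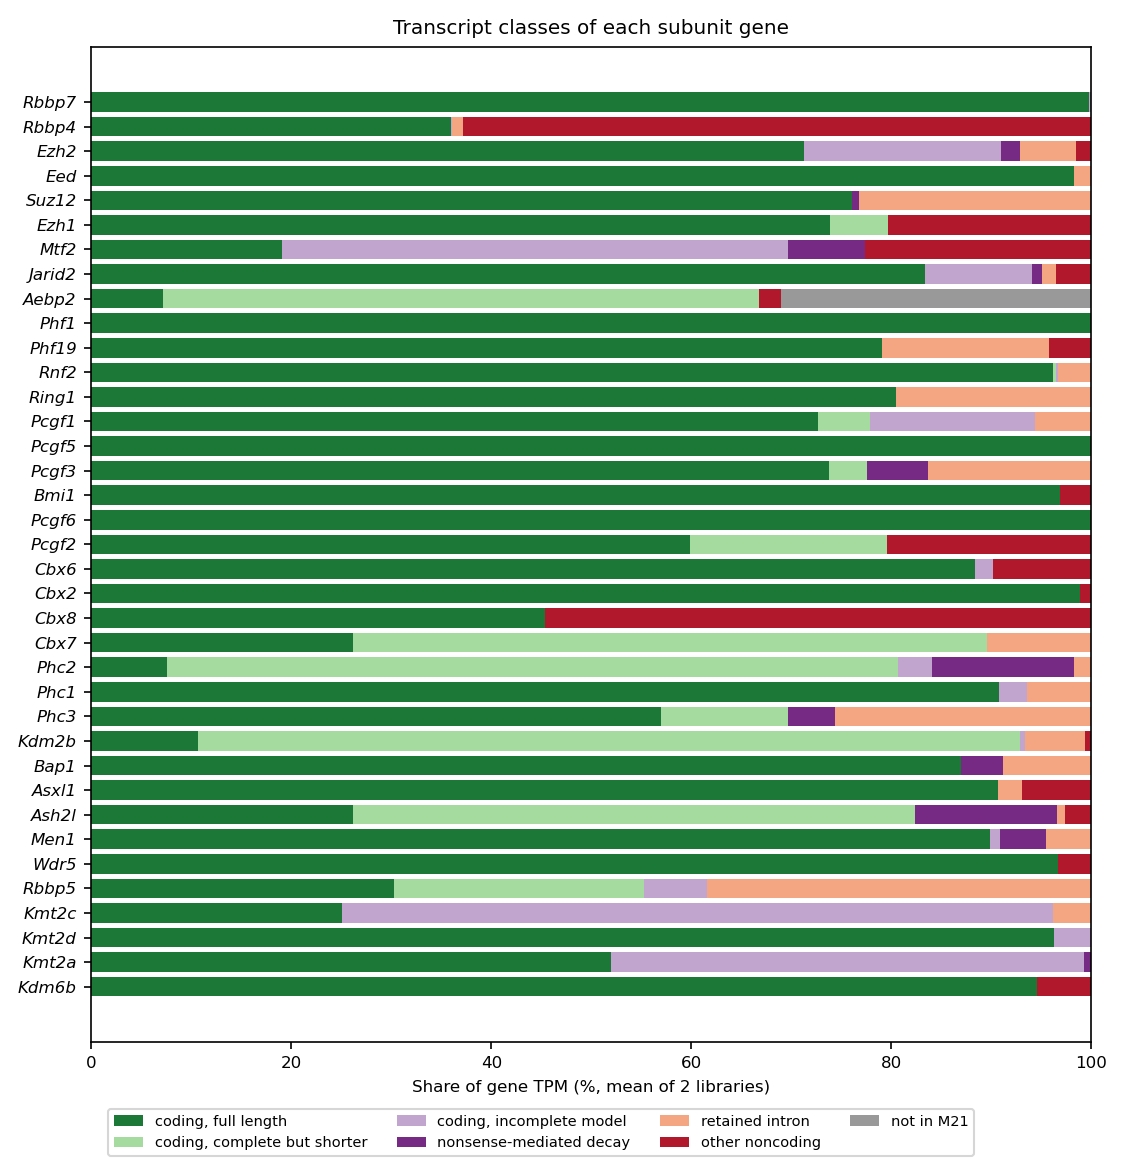
Share of each gene's TPM by class of annotated transcript, as the mean of the 2 libraries in percent, for the 37 genes in the order of their roles. Full-length coding transcripts fill most bars, while Kdm2b, Phc2, Cbx7, Aebp2 and Ash2l are mostly shorter coding forms, Kmt2c and Mtf2 mostly incomplete models, and Rbbp4 and Cbx8 mostly noncoding.

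Some coding transcripts with nearly as many codons as the leader were listed at 0 in one pool only. Suz12-206 held 0% and 31.8% of Suz12, beside 76.2% and 44.3% for Suz12-201. Ezh1-202 held 0% and 21.2%, and Pcgf5-202 held 27.1% and 0%. The gene totals of Suz12, Ezh1 and Pcgf5 differed far less between the same pools. In Phc1 the lead passed from Phc1-202 (46.3% and 33.7%) to Phc1-215 (21.3% and 45.2%), with overlapping intervals. Shares of such pairs are therefore less certain than the gene levels.

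**Figure D5:**
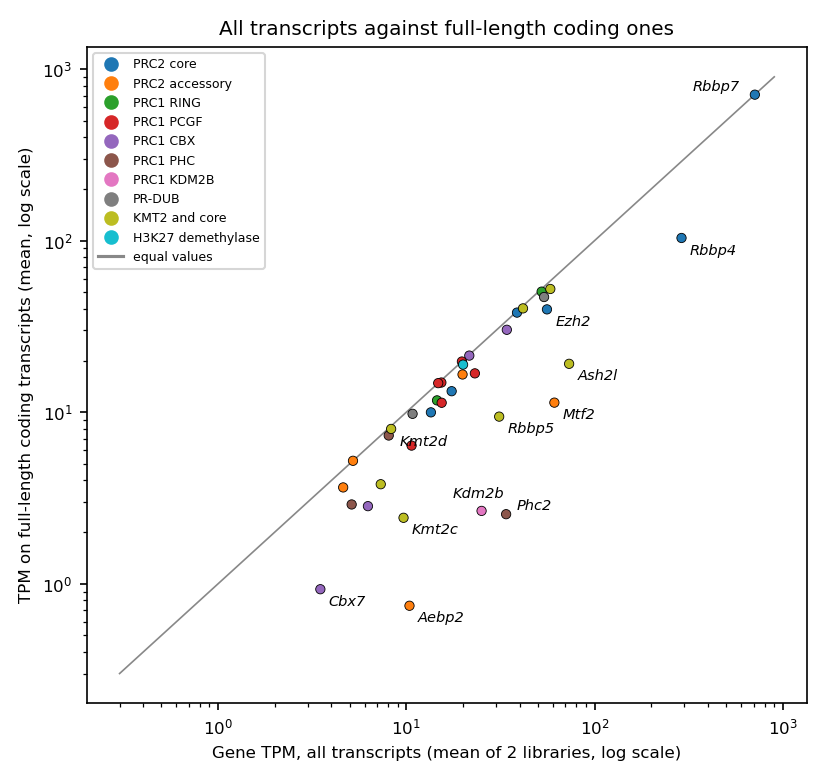
TPM on full-length coding transcripts against the TPM of all transcripts, both as the mean of the 2 libraries on log axes, coloured by role, with a line of equal values. Most genes lie near the line, while Aebp2, Phc2, Kdm2b, Mtf2, Kmt2c, Cbx7, Ash2l, Rbbp5, Rbbp4 and Cbx8 lie well below it.

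A list of 35 other genes of these pathways was read alongside, of which 34 were found by symbol. All 34 were detected, 23 of them at 10 TPM or more in both libraries, with a median of 14.9 TPM against 19.7 TPM for the 37 members. None differed by 1.5-fold between the pools. The highest was Dpy30, the small core subunit of KMT2 complexes, at 175 and 194 TPM. Next came Ogt, a glycosyltransferase bound by the BAP1 complex, at 91.5 and 97.7 TPM. Psip1, which tethers menin and KMT2A to chromatin, was at 65.1 and 79.2 TPM, and Yaf2, which joins PRC1 in place of CBX proteins, at 57.3 and 61.7 TPM.

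Members were compared within 9 families, of which that of Jarid2 and Aebp2 is a class of accessory subunits and not of paralogs. In these families, 16 of 18 pairs of neighbours in the order of levels did not overlap between their 2 libraries. By the stricter measure of the authors' intervals, 10 of 18 were apart in both libraries. The order was set by the means of the same 2 libraries, and no share for pairs of other genes stands beside these counts. They describe these pairs only. The largest steps at the top of a family were Mtf2 over Phf1, Phc2 over Phc1 and Ezh2 over Ezh1. The smallest were Kmt2c over Kmt2d, at 1.13-fold and 1.20-fold, and Pcgf1 over Pcgf5, at 1.29-fold and 1.06-fold.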

How the data were processed

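Total RNA-seq was measured in 2 libraries of E15.5 intestine. Per the deposited readme, reads were placed on mm10 and counted over GENCODE M4. Quantifier, version, read length and strand setting were not given in the sources used here. As named per the file headers, the authors deposited expected counts, which they estimated per gene and transcript and which need not be whole, with TPM and FPKM made from them and a posterior mean TPM. On each transcript's row the authors also deposited its percent of the gene. The bounds of the authors' TPM interval, which have no stated level, were treated as a score. They did not always enclose the listed TPM. Rbbp7, at 689 TPM in replicate 1, had bounds of 664 and 682.

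From the deposited values, ratios between libraries were computed as log2 of (TPM + 1), a scale that understates low genes. Names, transcript classes, coding sequences and starts came from GENCODE M21 on GRCm38 by identifier without version, which gave symbols for 42462 genes (98.0%). Of 269 member transcripts, 266 were in M21, 248 with the same length and 93 with the same version, and 3 lie under another gene there. Starts within 1 kb were joined. Coding sequences of paralogs were aligned globally in place of proteins. Shared sequence was searched as 31-base words in M21 transcripts of other genes and in their reverse complements, so overlap with a gene on the opposite strand counts too. Promoters came from RefSeq (GRCm38.p6), with none for Pcgf1, Cbx2, Kdm6b and Ash2l. Sequence steps ran in Python 3.11.15. For alternatives only, edgeR 4.0.16 and DESeq2 1.42.0 in R 4.3.3 scaled expected counts rounded to whole numbers. No test between groups was possible.

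All 37 members are named. Of the list of other genes the text names the 4 highest, those below 1 TPM (none) and the paralogs that complete a family. One of these paralogs is not reported here. Ezhip was not matched. For transcripts the rule names the leader and, where it is not protein-coding, differs between the libraries or leaves the second at least 30% in both, the second. Other transcripts named in the text, the start-site groups and the printed sequences were chosen after their values were seen. Members, lists and rules were chosen with earlier results of these data known.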

Additional observations from a re-analysis of the deposited data

How the results depend on the processing

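No paired analysis was possible because there was only 1 group. At a limit of 10 TPM 28 members passed in place of 37. The median member level of 19.7 TPM was 13.6 as FPKM and 24.2 when TPM was rescaled over nuclear protein-coding genes. The lower of the alternative fold thresholds called 1 member (Rbbp4) in place of 0. A share of at least 75% was held by the leading transcript in 13 genes in place of 24, and over 50% in 22 by posterior mean TPM, 29 among protein-coding transcripts and 30 by expected counts. By expected counts, a scale added after the data were seen, 31 members were led by a full-length coding transcript in place of 27, and 0 by an incomplete or noncoding one in place of 5. The median share on transcripts not annotated as protein-coding, 7.65%, was 2.58% by expected counts and 11.4% by posterior mean TPM.

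Ratios within families (log2), all between paralogs except Jarid2 over Aebp2, moved with the transcripts counted. With protein-coding transcripts only, Ezh2 over Ezh1 went from 2.04 to 2.24, Rbbp7 over Rbbp4 from 1.30 to 2.77, Mtf2 over Phf1 from 3.55 to 3.03, Jarid2 over Aebp2 from 0.94 to 1.43, Rnf2 over Ring1 from 1.84 to 2.10, Cbx6 over Cbx2 from 0.66 to 0.53 and Phc2 over Phc1 from 2.07 to 1.92. Phc2 over Phc1 was 1.84 by posterior mean TPM and 2.06 with a pseudocount of 0.1. Counting full-length coding transcripts only was a setting chosen after the data were seen. It gave 2.78 for Rbbp7 over Rbbp4, 1.11 for Mtf2 over Phf1, 4.48 for Jarid2 over Aebp2 and 0.50 for Cbx6 over Cbx2. The 4.48 leaves out the Aebp2 transcript that the newer annotation no longer holds. Under that setting the order reversed for Phc2 over Phc1 (-1.54), Kmt2c over Kmt2d (from 0.22 to -1.73) and Pcgf1 over Pcgf5 (from 0.23 to -0.23), which by construction follows from the transcripts left out.

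With either library alone, the median level was 18.6 to 20.4 TPM, and the count of genes led by over 50% was 24 to 29. The 9 family ratios given here, Jarid2 over Aebp2 among them, kept their sign. Pcgf3 over Bmi1 (1.17-fold and 0.871-fold) and Bmi1 over Pcgf6 (0.958-fold and 1.12-fold) did not. The estimated counts behind a member ran from 245 (Cbx7) to 32756 (Rbbp7) in replicate 1, and low totals limit the transcript shares of Cbx7 and Cbx8. The 2 pools give no estimate of the spread between single embryos.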

Other observations

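A list of 12 genes that Polycomb complexes are known to hold silent in many tissues was read as values. Cdkn2b, a cell cycle inhibitor, stood at 15.5 and 19.4 TPM and was the only one detected. Its neighbour Cdkn2a was listed at 0.05 and 0 TPM, with 1 and 0 estimated counts. The developmental regulators Pax3, Pax7, Olig2, Neurog2, Sim1, Nkx2-1, Lhx2, Six2, Barhl2 and Tbx5 were all below 0.38 TPM, the highest values being 0.37 for Lhx2 in replicate 1 and 0.35 for Six2 in replicate 2. At these depths their values rest on 0 to 20 estimated counts, and nothing here measures the histone marks at these genes.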
